A study of Mus musculus with 24 samples.

Results

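The genes described here are the globins of the mouse and Ahsp, which encodes the chaperone of free alpha globin. The members were the 8 gene names Hba-a1, Hba-a2, Hba-x, Hbb-b1, Hbb-b2, Hbb-bh1, Hbb-y and Ahsp as the scanner files write them, together with Hbb-bt and Hbb-bh2, which carry the same prefix. That gave 10 genes on 12 probes, out of 37008 genes and 56605 probes on the array. Total RNA from liver and from bone marrow of male Erfe-/- mice was hybridised to one-colour Agilent arrays before and after phlebotomy, a blood draw by retro-orbital puncture. Erfe encodes erythroferrone, a hormone that erythroblasts secrete and that lowers hepcidin. The 6 groups were liver and marrow at 0 h (labelled control), 24 h and 48 h after bleeding, with 4 arrays each from 4 mice per time. All 6 groups carry the Erfe deletion, so there is no wild-type group, and the labels used here give neither strain nor age. The p-values below therefore measure the spread between these mice within 1 experiment.

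Haemoglobin of adult mice is a tetramer of alpha chains, from Hba-a1 and Hba-a2 on chromosome 11, and beta chains from a cluster on chromosome 7. Laboratory strains carry 1 of several beta haplotypes. The adult genes are called Hbb-b1 and Hbb-b2 in one of them and Hbb-bs and Hbb-bt in another, and the array holds probes written for both. Hba-x (zeta), Hbb-bh1 and Hbb-y (epsilon) are the embryonic genes, which are known for the first red cells of the yolk sac, and Hbb-bh2 is a further gene of the beta cluster. Ahsp binds free alpha globin and keeps it soluble until a beta chain is available. Erythroblasts of the marrow make globin RNA at very high levels. Reticulocytes, the youngest red cells of the blood, still hold some, so that a liver containing blood gives a globin signal too.

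The probes decide what each name can show. The 4 given whole, from coding sequence, are shown because the comparison of adult with embryonic genes and of the paired Hba-a1 probes turns on them.
Hba-a1, coding probe: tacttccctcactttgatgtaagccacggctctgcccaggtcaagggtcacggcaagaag
Hbb-b2: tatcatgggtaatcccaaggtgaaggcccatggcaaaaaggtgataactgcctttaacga
Hbb-y: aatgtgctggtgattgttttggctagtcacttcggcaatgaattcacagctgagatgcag
Ahsp: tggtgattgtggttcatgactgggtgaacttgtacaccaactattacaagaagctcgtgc
The second Hba-a1 probe and the Hba-a2 probe lie at the 3′ end of their transcripts. The first 30 of their 60 bases are given to show how alike they are, with capitals on the bases they share within that stretch.
Hba-a1, 3′ probe: cTTCTTCTCTCCCTTGCACCTGTACCTCTT
Hba-a2: TTCTTCTCTCCCTTGCACCTGTACCTCTTg
Over their whole length these probes shared a run of 59 bases, so Hba-a1 and Hba-a2 were not told apart here. No other pair of the 12 probes shared a run of more than 10 bases.

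The scanner files place the probes on the mm9 build. The Hba-a1 coding probe lies at chr11:32183955-32184014 and the Hba-a1 3′ probe at chr11:32184427-32184486, both on the forward strand, and the Hba-a2 probe at chr11:32197245-32197304. Hba-x lies at chr11:32177668-32177727. On chromosome 7, all on the reverse strand, are Hbb-bt at chr7:110961105-110961164, Hbb-b1 at chr7:110976379-110976438, Hbb-bh2 at chr7:110988599-110988658, Hbb-y at chr7:111000448-111000507 and the Hbb-bh1 probe used below at chr7:110990209-110990268. The files give no position for the probes of Hbb-b2 and Ahsp. The Hbb-b1 probe holds the start codon and also lists the accession of Hbb-bs. Binding of the Hbb-b1 and Hbb-b2 probes to transcripts of the other beta haplotype was not tested.

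RefSeq (GRCm38.p6) gives the 110 bases before the start of 7 of the genes, Hbb-bs among them. They are shown for 3 adult and 2 embryonic genes to set adult beside embryonic genes. Capitals mark the letters CCAAT and the letters CACCC, the TATAA and the related CATAA, and GATAA, each on either strand and with adjoining matches run together.
Hba-a1, chr11:32283562-32283671, forward strand: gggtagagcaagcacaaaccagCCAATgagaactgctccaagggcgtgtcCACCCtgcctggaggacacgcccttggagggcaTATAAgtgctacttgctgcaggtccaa
Hbb-bs, chr7:103827929-103828038, reverse strand: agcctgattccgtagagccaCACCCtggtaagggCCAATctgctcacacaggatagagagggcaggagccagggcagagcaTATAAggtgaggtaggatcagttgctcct
Hbb-bt, chr7:103813924-103814033, reverse strand: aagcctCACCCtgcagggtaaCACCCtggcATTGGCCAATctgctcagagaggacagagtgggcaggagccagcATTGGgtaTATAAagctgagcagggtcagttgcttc
Hbb-y, chr7:103853208-103853317, reverse strand: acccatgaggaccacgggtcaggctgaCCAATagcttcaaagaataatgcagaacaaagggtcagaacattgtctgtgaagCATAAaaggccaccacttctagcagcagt
Hba-x, chr11:32276490-32276599, forward strand: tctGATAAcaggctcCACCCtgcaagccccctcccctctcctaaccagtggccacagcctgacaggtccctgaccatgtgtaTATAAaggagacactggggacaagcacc
CCAAT and CACCC stood together in 4 of the 7 globin windows, and in 5.42% of 32851 windows of this length over all genes. TATAA was found in 5 of the 7 and in 10.9% of all. Of the embryonic genes shown, Hbb-y held CCAAT but no CACCC, and Hba-x held CACCC but no CCAAT. These matches describe letters and were not tested as binding sites.

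Levels are log2 of the background-subtracted intensity minus the array's 75th percentile, so 0 is the brightness below which 75% of the spots lie. The 75th percentile was 354 to 467 intensity units in liver and 694 to 942 in marrow, and 28013 to 35700 probes per array were well above background. A gene is said to have risen or fallen only if limma, fitted over all genes of the comparison, gave a Benjamini-Hochberg adjusted p below 0.05. The signal of Erfe stayed at background in all 12 livers and in 11 of 12 marrow arrays, and was above it on 1, by 1 of 2 probes. That array, the library labelled marrow 24 h replicate 2, read 147 units where the other 11 marrow arrays read 3.52 to 7.14. The same library held liver transcripts: the median of 15 hepatocyte genes was 13.2% of their liver mean, against 0.0033% to 0.0234% on the other marrow arrays. Without it, the 7 tested members other than Hbb-bh1 differed from 0 h by -0.30 to 0.28 at 24 h in marrow, and none passed. The values of Hbb-bh1, the ratios and the tissue comparison without it are given below.

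In marrow, the embryonic beta-like gene Hbb-bh1 rose after bleeding, and none of the 5 adult globins passed the test, with log2 differences of -0.34 to 0.13. Hbb-bh1 was 2.75-fold higher at 24 h, a call that several other settings lost, and 3.29-fold higher at 48 h, and it was the 1 member of the 8 tested to pass the threshold at each time. Over all 21381 genes tested in marrow, 1% passed at 24 h and 1.06% at 48 h. Hbb-y and Ahsp were higher on all 4 arrays at 48 h than on any array at 0 h, as were 7.57% of all marrow genes, but did not pass. Hba-x and Hbb-bh2 were too dim to be tested. In bulk tissue, here and in liver, a change in the number of cells that hold a transcript and a change in its amount per cell cannot be told apart.

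The levels of Hbb-bh1 in marrow were -3.41, -3.83, -3.72 and -3.24 at 0 h. They were -1.62, -1.93, -2.75 and -2.06 at 24 h, and -1.95, -2.25, -1.20 and -1.93 at 48 h. Every bled marrow lay above every unbled one, as was so at 24 h for 3.77% of all marrow genes and at 48 h for 7.57%, and the 24 h and 48 h ranges overlapped. The log2 change was 1.46 (SE 0.26) at 24 h, with a limma adjusted p of 0.0254, and 1.72 (SE 0.26) at 48 h, with a limma adjusted p of 0.0104. The difference between 48 h and 24 h was 0.26 (SE 0.26, limma adjusted p = 0.821), a comparison in which 0.00468% of genes passed. On each of the 3 slides the change was above 0, from 0.84 to 2.0 at 24 h and from 1.31 to 2.0 at 48 h. Without the 24 h library that held liver transcripts Hbb-bh1 was higher by 1.41 at 24 h, and its limma adjusted p was 0.0732. The 24 h call was lost in 6 of the 8 fits that left out a single array. It was also lost with the slide or the replicate number as a block, with normexp background correction and with no filter on dim probes. The 48 h call was lost with the replicate number as a block (limma adjusted p = 0.0518). Hbb-bh1 was nonetheless dim, reaching at most 0.0425% of the scanner's saturation value in marrow. A second Hbb-bh1 probe, at chr7:110990930-110990989, was well above background on 1 of 12 marrow arrays and gave no test of the change.

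Hbb-y, the epsilon-like embryonic gene, stood at -4.06, -3.94, -3.37 and -2.97 in unbled marrow. At 24 h its levels were -3.0, -3.05, -3.82 and -3.10, all within the range of the unbled arrays. At 48 h they were -2.84, -2.58, -2.12 and -2.83, all above the highest unbled level, as was so for 7.57% of all marrow genes. The log2 change was 0.34 (SE 0.27) at 24 h and 0.99 (SE 0.27) at 48 h, with limma adjusted p of 0.634 and 0.109. Hba-x, the embryonic alpha-like gene, was well above background on 1 of 24 arrays, a marrow at 48 h. Hbb-bh2 was above background on 4 of 24 arrays, 3 of them livers.

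**Figure D1:**
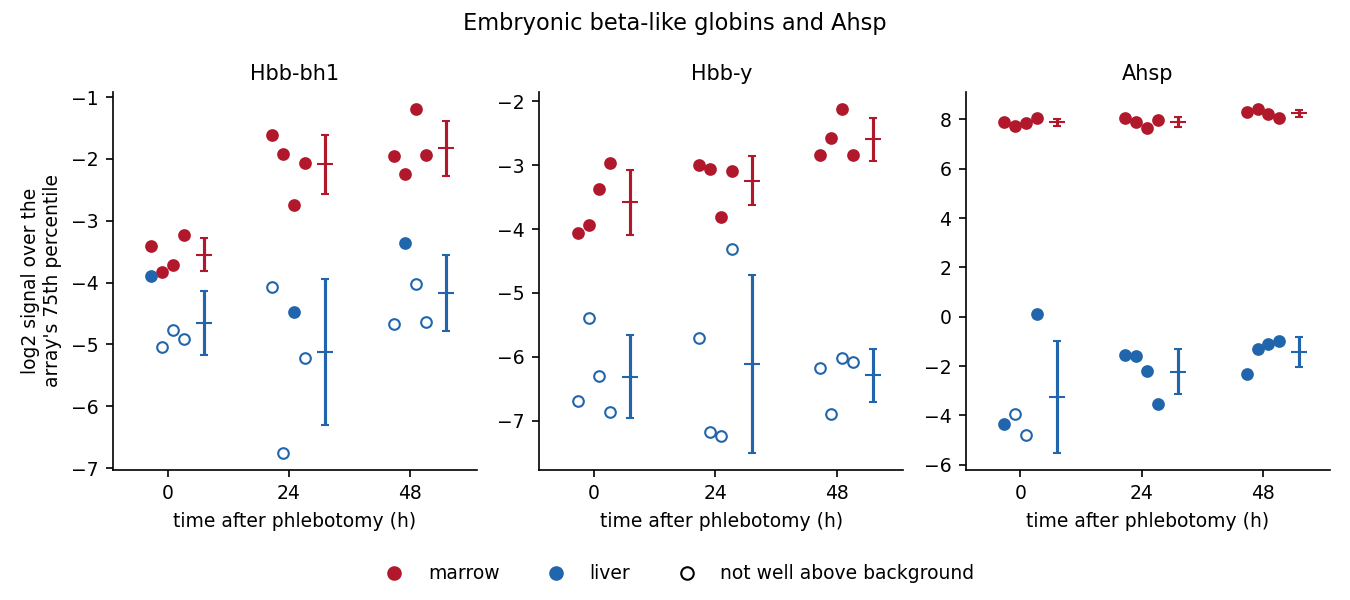
Levels of Hbb-bh1, Hbb-y and Ahsp (log2 signal over the array's 75th percentile) on each array at 0, 24 and 48 h, in marrow (red) and liver (blue); open circles were not well above background, and the bar beside each group is its mean ± SD (n = 4). Marrow Hbb-bh1 lies between -3.83 and -3.24 at 0 h and between -2.75 and -1.20 after bleeding, and liver Ahsp is high on 1 unbled array.

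The adult genes in marrow were bright and nearly level. The Hba-a1 coding probe read 9.77, 9.40, 9.62 and 9.79 at 0 h, 9.57, 9.47, 9.53 and 9.58 at 24 h, and 9.64, 9.78, 9.73 and 9.54 at 48 h. All 3 groups overlapped. Its log2 change was -0.11 at 24 h and 0.03 at 48 h, with 95% confidence intervals of -0.32 to 0.10 and -0.18 to 0.24. Hba-a2 differed by -0.10 and 0.00, with an interval of -0.20 to 0.21 at 48 h. Hbb-bt, an adult beta gene, differed by -0.09 and 0.01, with an interval of -0.22 to 0.23 at 48 h. Hbb-b2 differed by -0.19 and 0.04, the second from 3 arrays at 48 h, because the spot of replicate 2 carried the scanner's outlier mark and was left out.

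Hbb-b1 varied most among the adult genes in marrow. It stood at 7.51, 7.33, 7.56 and 7.92 at 0 h, at 7.23, 7.12, 7.01 and 7.58 at 24 h, and at 7.75, 7.86, 7.72 and 7.47 at 48 h. The 24 h arrays were the lowest on the whole, 3 of them below every unbled array. The log2 difference was -0.34 (SE 0.15) at 24 h, 0.13 (SE 0.15) at 48 h, and 0.47 (SE 0.15) between 48 h and 24 h, and the limma adjusted p was 0.384, 0.726 and 0.574. Without the 24 h library that held liver transcripts the first difference was -0.30.

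These probes were near the top of the scanner's range, although no spot was saturated. The Hba-a1 coding probe reached 78.6% to 87.9% of the saturation value in marrow, and the probes of Hba-a2 and Hbb-bt 55.9% to 66.6%. Hbb-b1, whose probe was lower, stood at 13.4% to 22.2%. How far the array response flattens at such brightness was not tested.

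Ahsp, the alpha-globin chaperone, was level in marrow at 24 h and higher at 48 h. Its levels were 7.88, 7.71, 7.85 and 8.05 at 0 h, 8.05, 7.88, 7.63 and 7.99 at 24 h, and 8.30, 8.41, 8.20 and 8.07 at 48 h. The 48 h arrays lay above all arrays of both other times. Against 0 h the same held for 7.57% of all marrow genes. The log2 change was 0.02 (SE 0.11) at 24 h and 0.37 (SE 0.11) at 48 h, with limma adjusted p of 0.971 and 0.146. The interval at 48 h ran from 0.12 to 0.62.

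Ratios within an array set 1 globin against another without the array's scaling. The log2 ratio of Hbb-bh1 to Hbb-b1 in marrow was 1.80 higher at 24 h and 1.59 higher at 48 h than at 0 h. That of Hbb-y to Hbb-b1 was 0.68 and 0.87 higher, and that of Ahsp to Hba-a1 was 0.34 higher at 48 h. Without the library that held liver transcripts the 24 h values were 1.71 and 0.58. In these 5 comparisons all 4 later arrays lay above all 4 unbled ones, with a two-sided exact permutation p of 0.0286, the smallest that 4 against 4 arrays allow. Adjusted over the 16 ratio comparisons made, the exact p was 0.0914. The ratio of Hba-a1 to Hbb-b1, alpha against beta, differed by 0.23 at 24 h and by -0.10 at 48 h in marrow, with exact p of 0.143 and 0.343.

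In liver, the adult globin signal was higher after bleeding, by 1.72-fold to 2.17-fold at 48 h over 5 adult genes. None of the 6 members tested passed the adjusted threshold, and neither did any of the 19638 liver genes at 24 h or 48 h (0% of genes), whereas 11.2% and 6.55% of genes had an unadjusted limma p below 0.05. By limma p, however, Hba-a1 ranked first of all liver genes at 48 h, Hba-a2 ranked 4 and Hbb-bt ranked 5. All 5 adult genes were higher on all 4 livers at 48 h than on any unbled liver, where 1.67% of all liver genes were. At 24 h the same held for 4 of the 5, against 2.1% of all genes. The 5 genes are not separate signs. The probes of Hba-a1 and Hba-a2 share a run of 59 bases, and adult probes of different genes correlated at 0.88 or more over the livers.

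The Hba-a1 3′ probe read 7.41, 7.49, 7.37 and 7.62 in unbled livers. It read 7.97, 7.98, 7.90 and 7.90 at 24 h, and 7.87, 8.51, 8.56 and 8.45 at 48 h. Both later groups lay wholly above the unbled one, and replicate 1 at 48 h stood lower than the other 3 of its group. The log2 change was 0.46 (SE 0.13) at 24 h and 0.87 (SE 0.13) at 48 h, and the limma adjusted p was 0.333 and 0.265. The two-sided exact permutation p was 0.0286 at each time. Within the 3 slides the change at 48 h was above 0 each time. The coding probe of the same gene gave 0.40 and 0.75.

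Hbb-bt showed the largest difference of the 5. It read 4.97, 4.89, 4.55 and 5.20 in unbled livers, 5.77, 5.77, 5.53 and 5.33 at 24 h, and 5.50, 6.23, 6.23 and 6.12 at 48 h. The lowest bled array, replicate 4 at 24 h, still lay above the highest unbled one. The log2 change was 0.69 (SE 0.19) and 1.12 (SE 0.19), with limma adjusted p of 0.327 and 0.265.

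Hbb-b2 gave 0.54 at 24 h and 0.86 at 48 h, and Hba-a2, whose probe is nearly that of Hba-a1, gave 0.46 and 0.87. Hbb-b1 read 1.74, 1.73, 1.21 and 1.77 in unbled livers, 2.11, 1.97, 2.27 and 1.72 at 24 h, and 1.89, 2.81, 2.53 and 2.36 at 48 h. One 24 h array lay within the unbled range. The log2 change of Hbb-b1 was 0.40 (SE 0.20) at 24 h and 0.78 (SE 0.20) at 48 h, with limma adjusted p of 0.469 and 0.508. The alpha to beta ratio in liver differed by 0.06 at 24 h and 0.09 at 48 h, with exact p of 0.714 and 0.543.

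**Figure D2:**
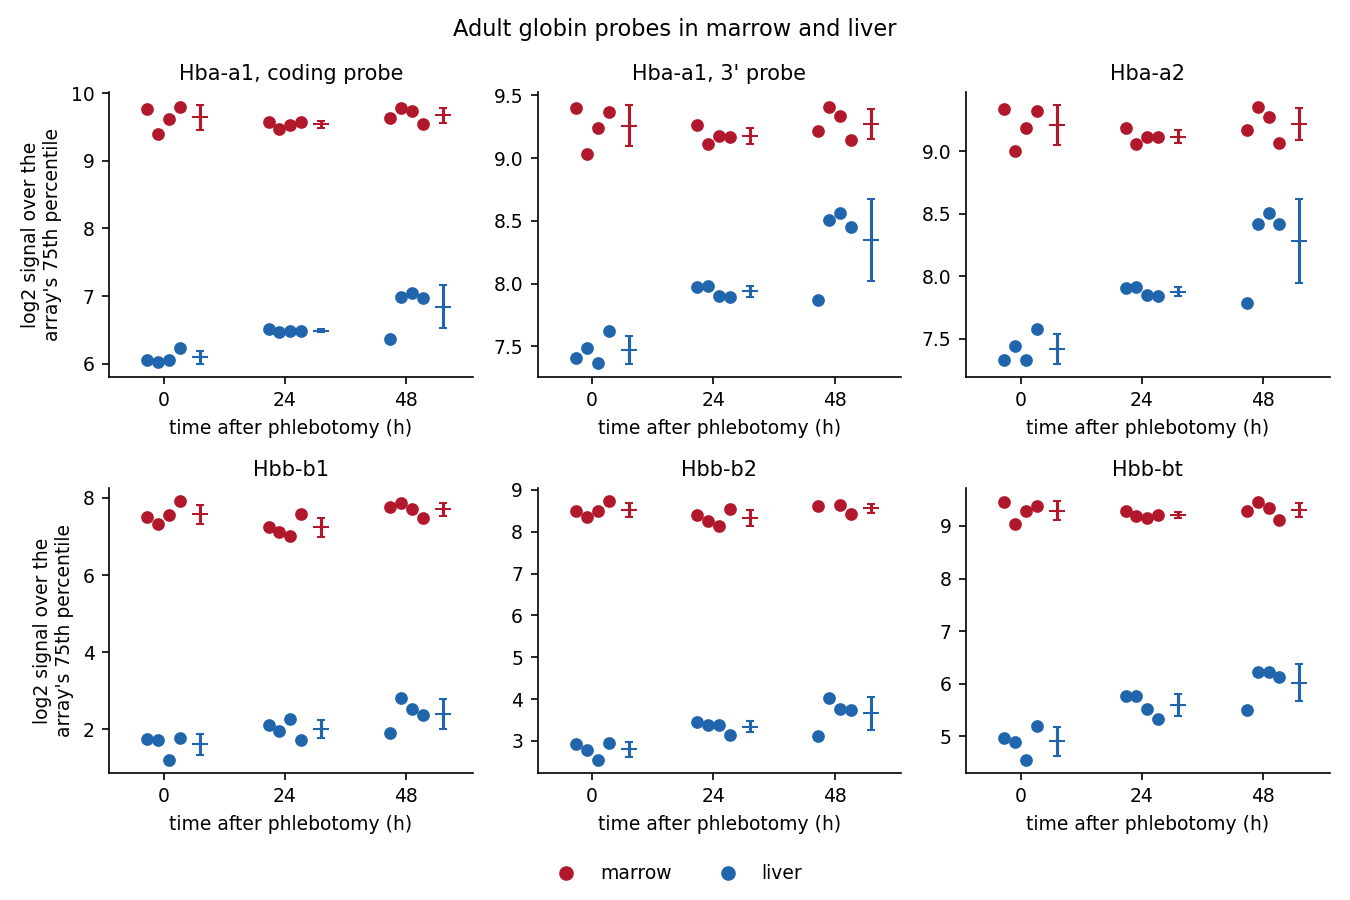
Levels of the 6 adult globin probes (log2 signal over the array's 75th percentile, each panel on its own scale) on each array at 0, 24 and 48 h, in marrow (red) and liver (blue), with mean ± SD beside each group (n = 4, or 3 for Hbb-b2 in marrow at 48 h). All 6 liver panels step up after bleeding, with replicate 1 the lowest at 48 h, while the marrow groups overlap.

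A single library decided whether the liver difference passed. Without liver 48 h replicate 1, Hba-a1, Hba-a2, Hbb-b2 and Hbb-bt passed at 48 h, with log2 changes of 1.03, 1.03, 1.04 and 1.29 and limma adjusted p of 0.000798, 0.000798, 0.0181 and 0.0181. They were 4 of the 9 genes that then passed over the whole liver. Replicate 1 was the lowest 48 h liver for each of these 4, so leaving it out raised their changes by construction. The p-values without it are therefore no separate support for a change. Leaving out any other single array of the comparison gave 0 globins.

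Ahsp in liver was close to the detection limit and varied widely among unbled livers. It read -4.35, -3.96, -4.81 and 0.09 in unbled livers, -1.56, -1.59, -2.20 and -3.54 at 24 h, and -2.33, -1.30, -1.09 and -0.98 at 48 h. Replicates 2 and 3 at 0 h were not well above background, and replicate 4 at 0 h was the highest of all 12 livers. The log2 change was 1.03 (SE 0.92) and 1.83 (SE 0.92), with limma adjusted p of 0.691 and 0.783. Without replicate 4 at 0 h it was 2.15 and 2.95, with limma adjusted p of 0.519 and 0.260. Hbb-bh1 was well above background on 3 of 12 livers and Hbb-y on 0 of 12, so the embryonic genes gave no liver comparison over time.

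Other red cell genes were read in the same livers from a fixed list. Of 15 late red cell genes, 8 could be tested in liver, and 0 passed at 24 h or 48 h. Their median log2 change at 48 h was 0.07, beside -0.02 over all liver genes. Slc4a1, the anion exchanger of the red cell membrane, was 1.66 higher (SE 0.51, limma adjusted p = 0.594). In unbled livers Slc4a1 read -3.36, -2.85, -3.43 and -0.99, so the array on which Ahsp was high was also the highest for Slc4a1. Carbonic anhydrase 1 (Car1), Hemgn and Ermap differed by -0.13, 0.00 and -0.06 at 48 h, and Car1 by -0.61 at 24 h (limma adjusted p = 0.314).

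Markers of the other blood cells were read beside these values. The summed log2 level of 6 red cell markers was 6.84 to 7.20 in unbled livers, 6.64 to 7.48 at 24 h and 6.60 to 7.15 at 48 h. That sum did not follow the globins, and its largest terms were Hemgn and Alas2. Hemgn alone read 6.33 to 7.33 over the livers, so it set most of the sum. It was also the 1 marker of the 6 that was lower in marrow than in liver, by -1.71 at 0 h. The sum therefore cannot show whether the red cell content of the livers changed. On each liver 4 of the 6 markers were well above background. The sum of 12 white cell markers was 3.90 to 5.51 at 0 h, 4.08 to 5.28 at 24 h and 3.82 to 4.62 at 48 h, and the median change of the 10 tested was 0.49 at 24 h and -0.12 at 48 h. The sum of 5 platelet and megakaryocyte markers was -0.37 to 0.68 at 0 h, 0.59 to 1.39 at 24 h and 0.66 to 1.10 at 48 h, with 1 to 3 of the 5 above background at 0 h and 3 to 4 later. The median change of the 3 tested was 0.93 at 24 h and 0.78 at 48 h. Their part in the globin difference was not tested.

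**Figure D3:**
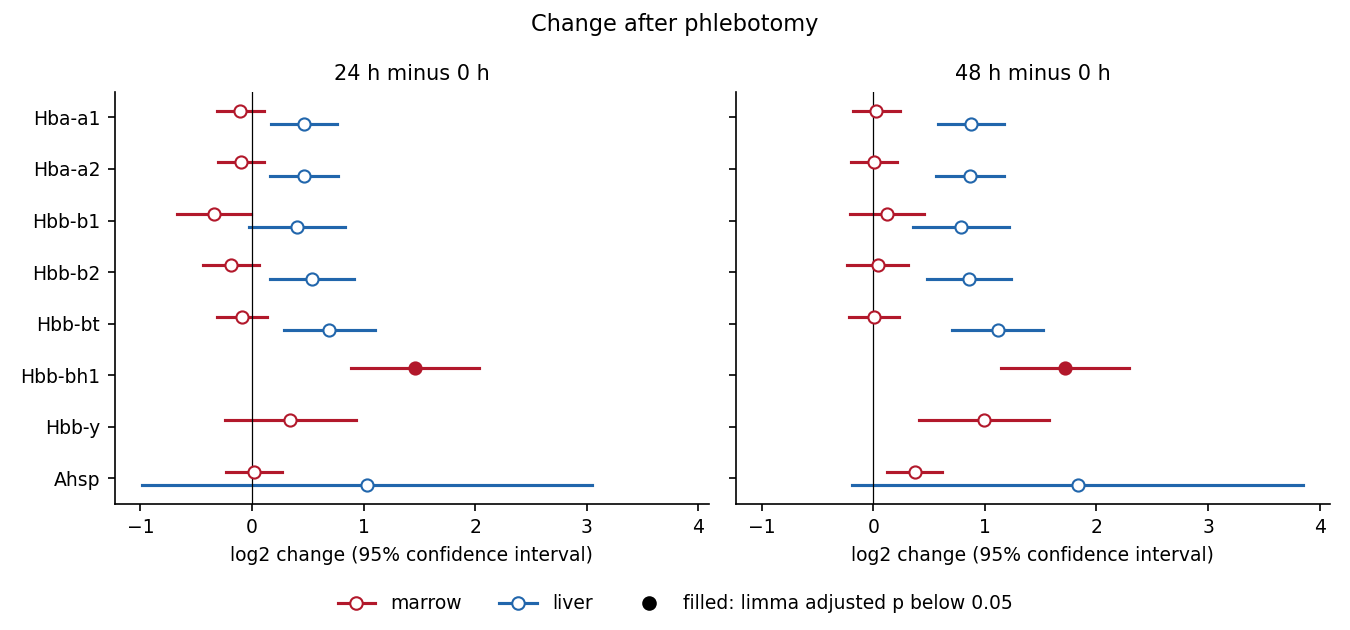
Log2 change of each tested member at 24 h and 48 h against 0 h in marrow (red) and liver (blue), with 95% confidence intervals from limma (filled: adjusted p below 0.05). Hba-a1 is the coding probe in marrow and the 3′ probe in liver. The liver changes of the adult genes lie at 0.40 to 1.12 and those in marrow at -0.34 to 0.13, and only marrow Hbb-bh1 is filled.

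Marrow carried more adult globin RNA than liver at each time. The 5 adult genes and Ahsp passed at 0 h, 24 h and 48 h, as did 39.5%, 38.8% and 40.3% of all 22768 genes tested over both tissues in that direction. Hbb-bh1 and Hbb-y entered this test through their marrow signal alone, so the filter on dim probes favoured calls in this direction. Their calls are not counted. The log2 difference between marrow and liver was 5.96 for Hbb-b1, 5.72 for Hbb-b2 and 4.39 for Hbb-bt at 0 h. It was 1.78 for the Hba-a1 3′ probe and 1.80 for Hba-a2. Ahsp differed by 11.1 at 0 h, when 2 of 4 livers were above background, by 10.1 at 24 h and by 9.67 at 48 h. Without liver 0 h replicate 4 the first of these was 12.2. Hbb-y was never above background in liver, and its signal in marrow was at least 1.85-fold, 2.87-fold and 3.80-fold higher at the 3 times, taking the lowest signal well above background on each liver array as the limit. For Hbb-bh1 the difference was 1.11 at 0 h, with 1 of 4 livers above background, and it was -0.17 with a normexp background correction (limma adjusted p = 0.386).

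The tissue gap in the adult genes was smaller after bleeding. For the Hba-a1 3′ probe it was 1.78 before bleeding, 1.24 a day later and 0.93 at 48 h, and for Hbb-bt 4.39, 3.61 and 3.28. Without the library that held liver transcripts the 24 h values were 1.26 and 3.61. The test of that difference, marrow change minus liver change, gave -0.55 at 24 h (-0.52 without that library) and -0.86 at 48 h for Hba-a1 (SE 0.17), with limma adjusted p of 0.166 and 0.0293. At 48 h it passed for 3 members, Hba-a1, Hba-a2 (-0.86, limma adjusted p = 0.0319) and Hbb-bt (-1.11, limma adjusted p = 0.0319). The first 2 rest on nearly the same probe, and the Hba-a1 coding probe gave -0.72, with a limma adjusted p of 0.0740 in a fit over probes. Over all genes 0.387% passed at 48 h, 0.0307% of genes in this direction, and 0.347% at 24 h, where 0 of 8 members did. Leaving out a single array took the count to 0 in 9 of 16 cases. The study had 4 mice per time, so liver and marrow arrays of a time come from the same mice, although the labels do not say that equal numbers mark a mouse. Tested within same-numbered pairs, the values of Hba-a1, Hba-a2 and Hbb-bt were the same, 0 members passed, and the limma adjusted p was 0.0996, 0.108 and 0.0996. The corresponding value for Hbb-b1 was -0.66 and for Hbb-b2 -0.82, neither of which passed. In marrow the probes of the 3 members that passed read 55.9% to 68.4% of the scanner's saturation value. Hbb-b1 read 13.4% to 22.2% there and Hbb-b2 at most 42.6%. In liver the probes of those 3 members read 1.24% to 24.6%. A flattened array response in marrow could make its change look smaller, and its part in these differences was not tested.

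The paired Hba-a1 probes read differently in the tissues. The coding probe was above the 3′ probe in marrow, by 0.36 to 0.43 at 0 h, and below it in liver, by a log2 difference of -1.46 to -1.31 at 0 h. The mean difference in marrow was 0.39, 0.36 and 0.40 at 0, 24 and 48 h, and in liver -1.38, -1.45 and -1.50. The tissues did not overlap at any time. The two-sided exact permutation p was 0.0286 each, the smallest that 4 against 4 arrays allow. It was computed without pairing, although the liver and marrow arrays of a time come from the same mice. At 0 h the tissue gap of Hba-a1 was therefore 3.55 by the coding probe and 1.78 by the 3′ probe. The size of that gap rests on the probe, and its direction was the same in both.

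**Figure D4:**
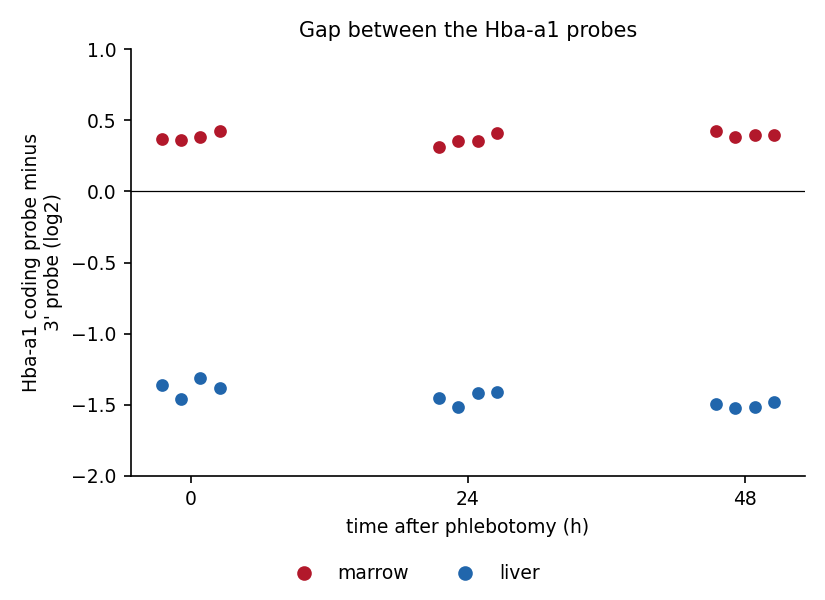
Difference between the Hba-a1 coding probe and the Hba-a1 3′ probe on each array (log2) at 0, 24 and 48 h, in marrow (red) and liver (blue), 4 arrays a group. Marrow lies between 0.31 and 0.43 and liver between -1.52 and -1.31 at all times.

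Genes around the globins were read in marrow from lists of genes by their known roles. Of 19 regulators of the globin loci and of globin switching, 17 were tested, and 1 rose at 48 h, the erythroid transcription factor Tal1 (0.62, SE 0.11, limma adjusted p = 0.0240). The list's median change was 0.23, beside -0.0040 over all genes. Bcl11a, a repressor of embryonic and fetal globin genes, gave 0.34 (limma adjusted p = 0.162), the erythroid factor Klf1 0.49 (limma adjusted p = 0.113), and Myb, which falls as erythroblasts mature, -0.14 (limma adjusted p = 0.360).

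Of the 8 enzymes of haem synthesis, 3 rose at 48 h, among them Alad (0.56) and Cpox (0.68), with limma adjusted p of 0.0487 and 0.0440, and the median of the list was 0.50. Alas2, the first enzyme of the pathway in red cells, gave 0.18 (limma adjusted p = 0.633). Of 9 early erythroblast genes, 2 rose at 48 h, the transferrin receptor Tfrc (1.02, limma adjusted p = 0.00376) and Rhag (0.74, limma adjusted p = 0.0428). Tfrc also rose at 24 h (0.79, limma adjusted p = 0.0154), with and without the library that held liver transcripts. Of 15 late red cell genes, 1 rose at 48 h, Tmcc2 (0.71, limma adjusted p = 0.0471), and the median was 0.42. In the same marrows 0 of 12 white cell markers passed at 48 h, with a median of -0.26, and 0 of 4 macrophage markers, with a median of -0.45, and their part in these differences was not tested. In liver none of these lists held a gene that passed at 24 h or 48 h.

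**Figure D5:**
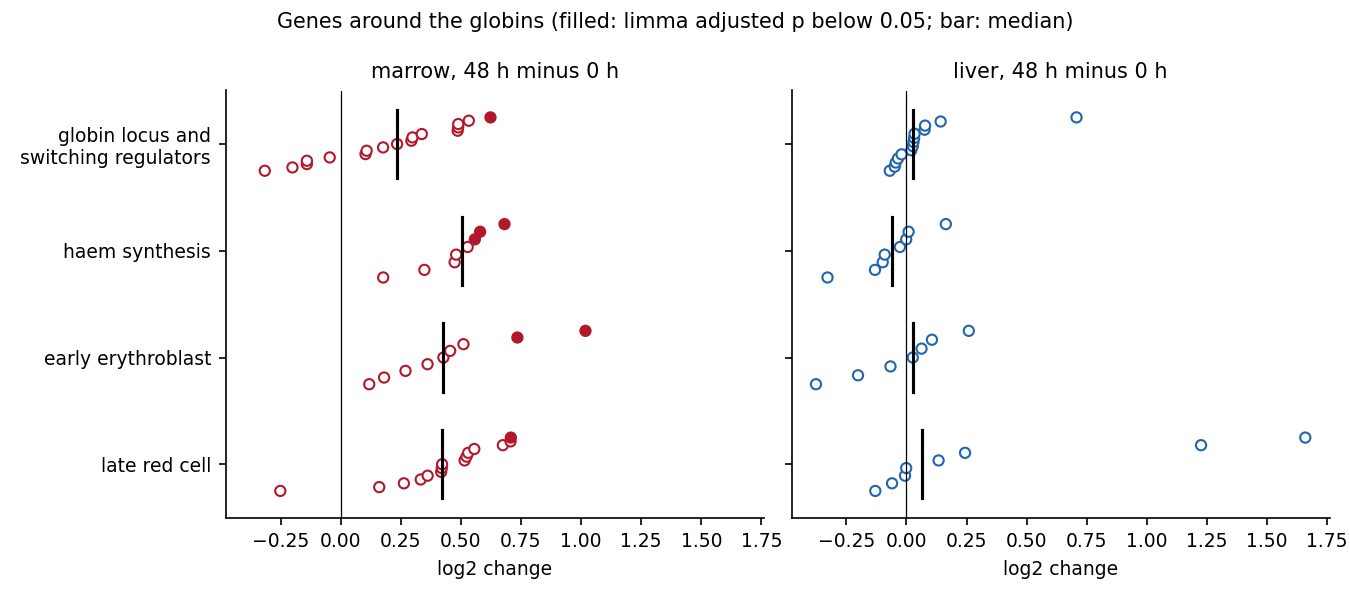
Log2 change at 48 h against 0 h of each tested gene in 4 lists, in marrow (left) and liver (right); filled points have a limma adjusted p below 0.05 and the bar is the list's median. In marrow the medians lie at 0.23 to 0.50, and in liver at -0.06 to 0.07.

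Of 5 other members of the globin family, the theta-like genes Hbq1a and Hbq1b and cytoglobin (Cygb) were tested in marrow. Hbq1b was 0.52 higher at 48 h (SE 0.13, limma adjusted p = 0.0969), and Hbq1a was 0.17 higher (SE 0.15). All 4 arrays of Hbq1b at 48 h lay above the unbled ones, as was so for 7.57% of all marrow genes. Neither theta-like gene was well above background on any liver. Cytoglobin was the 1 gene of this list tested in liver, at 0.53 and 0.42.

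How the members varied together over arrays is given as Pearson correlations without a test, since arrays of 1 tissue share the time course. Each level also holds its array's scaling. In marrow the Hba-a1 3′ probe read 451687 to 517951 units, while the 75th percentile ran from 694 to 942. A shared scaling can thus enter the correlations of bright probes, and its part was not tested. Over the 12 livers, the adult globin probes of different genes correlated with each other at 0.88 or more, while Ahsp correlated with them at 0.65 to 0.74. Over marrow arrays Hbb-b1 and Hbb-b2 correlated at 0.98, on 11 arrays, and Hba-a1 (3′ probe) and Hbb-bt at 0.96. Hbb-bh1 correlated with the adult globins at 0.00 to 0.07, with Hbb-y at 0.77 and with Ahsp at 0.58. Of the genes most like Hbb-bh1 over the 12 marrow arrays, Apol10a (0.97) and Cltb (0.95) came first. For Ahsp in marrow they were Mgst3 (0.98) and Rmi2 (0.97), and for Hbb-b1 in marrow Unc93a2 (0.98) and Zfp608 (0.96). In liver the genes most like Hbb-b1 were Ube2o (0.92) and Zdhhc22 (0.91), and the gene most like Ahsp was Slc4a1 (0.95).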

How the data were processed

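The authors' scanner files are Agilent Feature Extraction output, 1 per array, and the version per the submitters' processing notes is 10.10.1.1. The deposited intensity is the processed, background-subtracted signal, 1 value per spot. A table of the authors' log2 values was used as an alternative, and the steps that made it are not given in the sources used here. The 3671 control spots were left out, log2 intensity was taken relative to each array's 75th percentile over the remaining spots not marked as outliers, and spots of a probe were averaged. A probe was kept if every array of some group in the fit read it well above background, and a gene was read by its brightest kept probe. limma 3.58.1 (R 4.3.3) was fitted to marrow (12 arrays), liver (12) and both (24), with Benjamini-Hochberg adjustment over all genes and a threshold of 0.05. Single values were tested with the two-sided exact permutation test. The number of arrays limits the precision. On simulated data in marrow at 48 h, with 21381 genes, 77% of genes changed by a log2 of 1 and 30% of those changed by 0.5 were recovered. In liver at 48 h, with 19638 genes, the shares were 84% and 40%. The simulated errors were independent between genes, with no effect common to an array and no outlying array. The shares hold for that setting alone and were not shown for the real arrays, where 0 liver genes passed. Probes were named through RefSeq accessions (32994), symbols (10224) or synonyms (520), and 12867 kept the scanner file's name. Of the members, Ahsp was not matched in RefSeq's table. All arrays of a tissue differed from each other. The rule for genes other than members took list genes that passed, the regulators and markers named, and the genes most correlated with Hbb-b1, Hbb-bh1 and Ahsp. Members and lists were chosen with earlier results of these data known. There were 13 alternatives besides leaving out each array, 1 of them chosen after seeing the data. Some genes of the lists are not reported here.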

Additional observations from a re-analysis of the deposited data

Results flagged for a closer look

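Liver 48 h replicate 1 stood apart from the other 3 arrays of its group on 4 probes, each time as the lowest: Hba-a1 at 7.87 (3′ probe) against 8.45 to 8.56, Hba-a1 at 6.37 (coding probe) against 6.97 to 7.05, Hba-a2 at 7.78 against 8.42 to 8.51, and Hbb-bt at 5.50 against 6.12 to 6.23. These probes read the same RNA and 2 of them share 59 bases, so they are not 4 separate signs. Liver 0 h replicate 4 was the highest of its group for the Hba-a1 coding probe, at 6.24 against 6.03 to 6.06. Liver 0 h replicate 3 was the lowest for Hbb-b1, at 1.21 against 1.73 to 1.77. In marrow, 24 h replicate 3 was the lowest for Hbb-y, at -3.82 against -3.10 to -3.0. Over 47 groups of 4 arrays examined, chance alone marks about 1 group in 20.

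The marrow change at 48 h differed from the liver change for Hba-a1 (-0.86), Hba-a2 (-0.86) and Hbb-bt (-1.11), by the limma test of that difference, and 0 members passed within same-numbered liver and marrow pairs. The liver library named above was the lowest of its group in each of them, and without it the values were -1.02, -1.03 and -1.28. The probes of these members were near the top of the scanner's range in marrow, and the part of a flattened array response was not tested.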

How the results depend on the processing

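The count of globins that passed in marrow at 24 h went from 1 to 0 with normexp background correction, with no filter on dim probes, with the slide as a block and with the replicate number as a block, and was 0 to 1 when single arrays were left out. It was 0 in 6 of those 8 cases, namely without marrow 0 h replicates 1, 2 and 3 and without 24 h replicates 1, 2 and 4. Limma adjusted p of Hbb-bh1 at 24 h ranged from 0.00901 to 0.0986 and its change from 0.89 to 1.68. At 48 h the count stayed at 1 except with the replicate block, where it was 0 (adjusted p of Hbb-bh1 0.0518). The count in liver at 48 h, 0, was 0 to 4 with single arrays left out. Between tissues the fit called 8, a count that holds Hbb-bh1 and Hbb-y, which entered through marrow alone and are not read as results. That count became 4 at 0, 24 and 48 h when probes had to be above background on all arrays, since fewer members were then tested. At 0 h it was 7 to 8 with single arrays left out. The reversed value is Hbb-bh1 between tissues at 0 h, -0.17 under normexp, which shifted the median of all genes in that comparison by -0.22. For marrow change minus liver change at 48 h the count of 3 became 0 with no filter, with the replicate block, within same-numbered liver and marrow pairs (replicate block by mouse, chosen after seeing the data) and with only the groups compared in the fit, and was 0 to 4 with single arrays left out (0 without liver 0 h replicates 2 and 3, liver 48 h replicates 2, 3 and 4, marrow 0 h replicates 1 and 3 or marrow 48 h replicates 1 and 4, and 1 without marrow 48 h replicate 2). The cause of these shifts was not tested. Genes called over the whole array ranged from 66 to 347 in marrow at 24 h, from 89 to 660 at 48 h and from 0 to 9 in liver at 48 h, and for the difference of changes from 8 to 179 at 24 h and from 11 to 177 at 48 h. Deviations of same-numbered arrays of different times correlated at -0.23 to 0.17 in marrow and -0.25 to 0.12 in liver, so the numbers did not pair the times. Those of same-numbered liver and marrow arrays of 1 time correlated at 0.01 to 0.14, against -0.11 to 0.06 for other numbers, and 9 of 12 marrow arrays were nearest to the liver of their own number, a hint from the data that the numbers mark mice. The list counts in marrow were the same without 24 h replicate 2, an alternative chosen after seeing the data. Dim probes such as Hbb-bh1 and Hbb-y, and Ahsp in liver, are limited by their closeness to background.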
